A study of Mus musculus with 22 samples.

Results

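The endothelium that lines the vessels of skeletal muscle was followed through 8 genes named for it, Kdr, Flt1, Pecam1, Tek, Mmrn2, Ushbp1, Cdh5 and Eng, in whole quadriceps of mice given leucine or vehicle. They were found by gene symbol in a table of read counts for 6054 genes, and 7 of the 8 have a row there. Eng has none among the rows used here, and its values come from the authors' deposited tables of test results alone. Kdr, Flt1, Pecam1, Tek, Mmrn2, Ushbp1 and Cdh5 carried 150 to 8886 counts per library.

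Endothelial cells form the inner wall of every blood vessel, and in muscle most of them belong to the capillaries that run along the fibres. They read the growth factor VEGF-A through the receptor kinases VEGFR2 (Kdr) and VEGFR1 (Flt1), and the angiopoietins through the kinase TIE2 (Tek). They hold together through VE-cadherin (Cdh5) and PECAM1, and endoglin (Eng) is a co-receptor of the TGF-beta and BMP family. Most RNA of a whole muscle comes from the fibres, so such genes report on a minor cell type of the tissue.

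Quadriceps came from C57Bl/6 mice, whose age the labels do not give. The mice were fasted overnight and gavaged with leucine or with vehicle, and muscle was taken 30 minutes later. Every animal of both treatments was therefore fasted and gavaged. Total RNA was sequenced in 5 vehicle and 6 leucine libraries, and ribosome footprints, the RNA fragments shielded by ribosomes, in 5 vehicle and 6 leucine libraries. The vehicle agent is not named in the labels, and whether a library came from 1 animal is not stated, so the p-values measure the spread between libraries, which may be technical. Total counts per library ran from 15016300 to 30944100 in RNA and from 21697100 to 48996100 in footprints.

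Library columns start with 1 of 2 prefixes of unknown meaning, and the libraries are called set A and set B after them. Each assay has 3 vehicle and 3 leucine libraries in set A, and 2 vehicle and 3 leucine libraries in set B. The number after the letter follows column order within each group, so equal numbers do not link libraries across treatments or assays. In RNA, leucine library A3 lay farthest out on the first principal component, at -32.5 against -13.5 to 18.5 for the other 10 libraries. The labelled tissue matched its defining markers: 15 of 16 muscle fibre markers had a row, and their summed level was 339283 to 519102 CPM in RNA. CPM are counts scaled to a common library total after TMM adjustment, so a level is always relative to the other genes.

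The promoters of Kdr, Ushbp1 and Tek are shown because Kdr and Ushbp1 were the pair with the closest pattern over the RNA libraries, described further on, and Tek had the lowest correlation with the rest there, at 0.32. That place rested on leucine RNA library A3, since without it Tek was at 0.66 and Mmrn2, at 0.48, was the lowest. RefSeq start sites for build GRCm38.p6 matched 5 of the 8 genes, Kdr, Flt1, Tek, Ushbp1 and Eng. Each run gives the 250 bases before the start, 5′ to 3′ on the gene's own strand, from chr5:75978456-75978705 (minus strand) for Kdr, chr8:71395802-71396051 (minus strand) for Ushbp1 and chr4:94739039-94739288 (plus strand) for Tek. Capitals mark matches, on either strand, to CAGGAA or ACAGGAAG (letters that hold the core read by ETS factors), GGGCGG (letters read by SP factors) and TATAAA (the TATA box).
Kdr: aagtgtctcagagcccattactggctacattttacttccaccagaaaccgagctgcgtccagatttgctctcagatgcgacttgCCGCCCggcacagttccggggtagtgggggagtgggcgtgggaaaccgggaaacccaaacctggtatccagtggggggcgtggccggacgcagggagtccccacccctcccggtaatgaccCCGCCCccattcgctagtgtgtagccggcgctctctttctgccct
Ushbp1: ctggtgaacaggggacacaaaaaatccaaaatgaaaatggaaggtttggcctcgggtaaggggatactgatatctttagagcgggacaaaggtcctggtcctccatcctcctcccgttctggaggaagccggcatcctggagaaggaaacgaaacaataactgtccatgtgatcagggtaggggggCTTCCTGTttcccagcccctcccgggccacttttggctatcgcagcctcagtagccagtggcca
Tek: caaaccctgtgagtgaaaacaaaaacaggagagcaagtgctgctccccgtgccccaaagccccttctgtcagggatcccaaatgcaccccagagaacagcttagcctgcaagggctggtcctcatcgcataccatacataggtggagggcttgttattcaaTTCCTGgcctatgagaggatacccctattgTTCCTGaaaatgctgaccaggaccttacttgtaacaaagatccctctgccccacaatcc
Kdr holds GGGCGG at 2 places, both on the opposite strand, and none of the other motifs. Ushbp1 holds ACAGGAAG once, with CAGGAA inside it, and Tek holds CAGGAA at 2 places. The promoter of Flt1 holds GGGCGG at 3 places and TATAAA at 1 place, and that of Eng holds none of the 4 motifs. Of 32851 promoters of this length, 25.7% hold CAGGAA, 2.9% ACAGGAAG, 32.7% GGGCGG and 12.4% TATAAA. A match describes the letters only. GC content was 61.6% for Kdr, 70.4% for Flt1, 51.2% for Tek, 54.0% for Ushbp1 and 62.4% for Eng, against a median of 52.4% over all promoters.

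**Figure D1:**
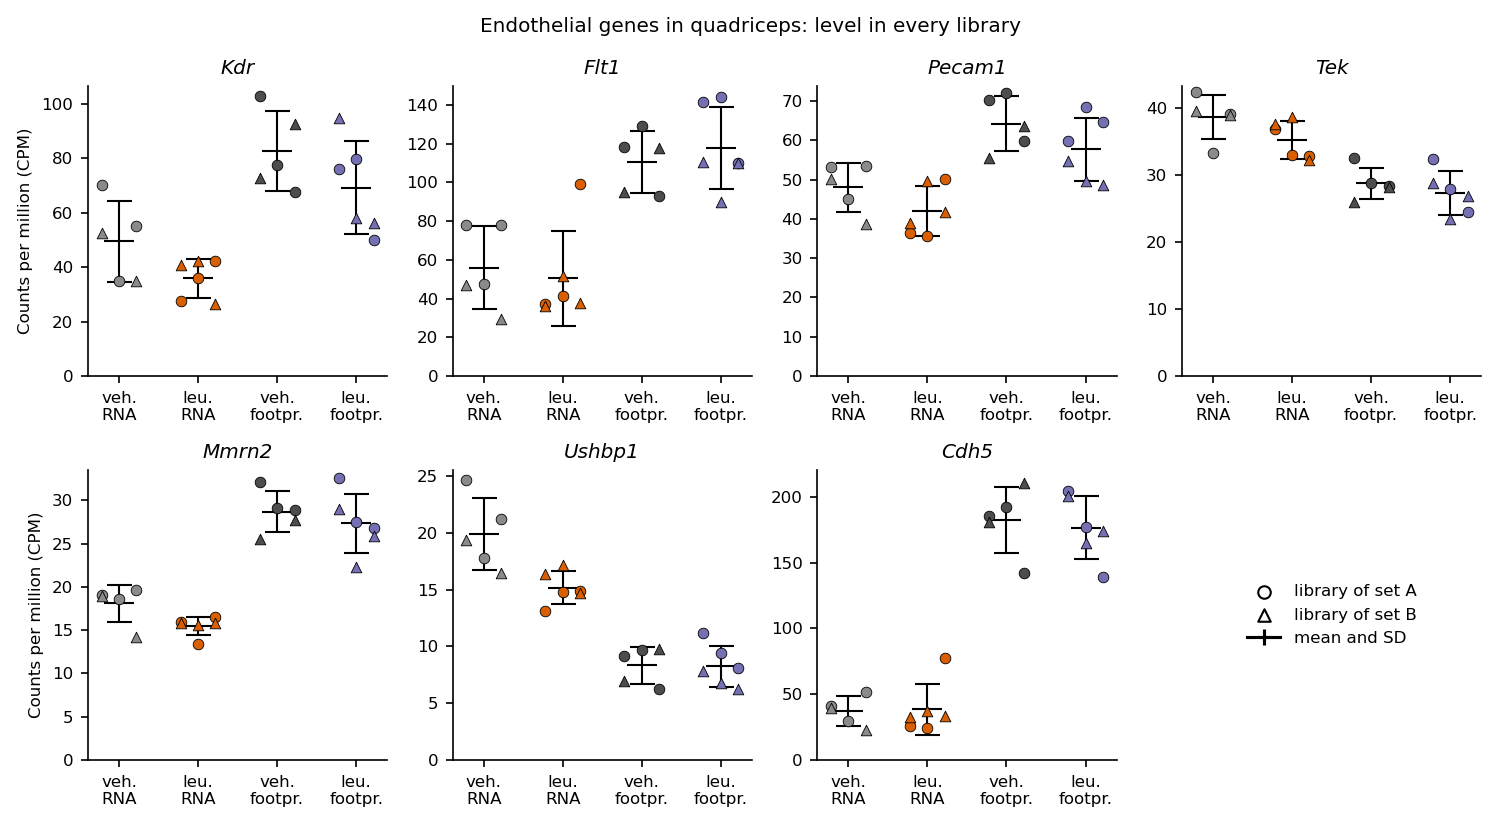
Level of each of the 7 endothelial genes in all 22 libraries, in CPM on an axis from 0, with circles for set A, triangles for set B, and bars for the mean and SD of each group. Vehicle and leucine groups overlap for every gene in both assays, and Cdh5 has footprints of 139 to 211 CPM over RNA of 22.8 to 77.3 CPM.

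The question put to the treatment was whether leucine changed these genes within 30 minutes in RNA, in footprints, or in footprints beyond the RNA. None of the 7 passed an adjusted p of 0.05 in any of the 3 comparisons. Over all 6054 genes the share called was 0% in RNA, 0.76% in footprints and 0% in footprints relative to RNA, with 0.694% higher and 0.0661% lower in footprints. In RNA 6 of the 7 had a negative log2 change, where 49.4% of all genes had a positive one. The median was -0.19 against -0.0017 over all genes. Among the negative ones, Flt1 changed sign within set B. In whole muscle, fewer endothelial cells and less RNA per endothelial cell cannot be told apart. In footprints 6 of 7 were negative, where 46.2% of all genes were positive, with a median of -0.07 against -0.01 over all genes. Of the negative ones, Ushbp1 at -0.00184 and Cdh5 at -0.04 changed sign under some alternatives, such as within set A. RNA levels of Kdr, Mmrn2 and Ushbp1 had an unadjusted edgeR p under 0.05, 3 of 7 against 2.69% of all genes. In footprints 0 of 7 did, against 12.1% of all genes. The authors' deposited edgeR results give larger unadjusted RNA p-values for Mmrn2, at 0.162, and Ushbp1, at 0.0167. For Kdr they give 0.0235. The genes were chosen with earlier results of these data known, and their values over the libraries are correlated. The count of 3 of 7 is therefore a description and not independent evidence. DESeq2 called 0 of the 7 in each comparison as well. The groups overlapped for each gene in both assays. Over all genes, leucine lay wholly above vehicle for 0.132% in RNA and 1.75% in footprints, and wholly below for 0.0661% and 0.743%.

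Kdr encodes VEGFR2, the main signalling receptor for VEGF-A. Its RNA was 70.01, 34.9, 54.99, 52.5 and 34.8 CPM in vehicle libraries A1, A2, A3, B1 and B2, and the 6 leucine libraries gave 26.5 at the lowest, 38.4 at the median and 42.2 at the highest. Vehicle A1 was high and vehicle A2 and B2 were low, at levels inside the leucine range, and the other vehicle libraries lay above every leucine library. The RNA mean was 49.4 ± 14.9 CPM (SD, n = 5) with vehicle and 35.9 ± 7.17 CPM (SD, n = 6) with leucine, a log2 change of -0.46 ± 0.20 (SE; 95% interval -0.90 to -0.02; unadjusted p = 0.0405, edgeR adjusted p = 0.999). Kdr footprints were 103, 77.6, 67.5, 72.9 and 92.5 CPM in vehicle libraries A1, A2, A3, B1 and B2, and 50.1 at the lowest, 67.05 at the median and 94.8 at the highest with leucine. Leucine B1 stood inside the vehicle range near its top, and leucine A3, B2 and B3 lay under every vehicle library. The footprint log2 change was -0.26 ± 0.17 (edgeR adjusted p = 0.566).

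Flt1 encodes VEGFR1, which binds VEGF-A tightly and signals weakly. Its RNA was 77.7, 47.4, 78.2, 47.00 and 29.3 CPM in the vehicle libraries in the same order, and 36.4 at the lowest, 39.5 at the median and 99.2 at the highest in the leucine libraries. The leucine maximum was library A3, which stood above all vehicle libraries, while the other 5 leucine libraries lay between the vehicle extremes. The log2 change in Flt1 RNA was -0.15 ± 0.32 (edgeR adjusted p = 0.999), and without leucine A3 it was -0.45 (edgeR adjusted p = 0.727). Without vehicle A1 or vehicle A3 it was at 0.0047 and 0.0099. Flt1 footprints were 118, 129, 92.7, 94.96 and 118 CPM with vehicle, and 89.8 at the lowest, 110.3 at the median and 144 at the highest with leucine. Leucine A1 and A2 were the highest of all 11 libraries and leucine B2 the lowest, so the leucine values enclosed the vehicle ones. In footprints the log2 change was 0.09 ± 0.13 (edgeR adjusted p = 0.837).

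Tek encodes TIE2, the receptor of the angiopoietins, which help to keep the vessel wall quiescent. Its RNA was the steadiest of the receptors, at 42.4, 33.3, 39.2, 39.5 and 39.00 CPM with vehicle and 32.3 at the lowest, 34.9 at the median and 38.7 at the highest with leucine. Vehicle A2 alone was low and lay inside the leucine range, and the other 4 vehicle libraries lay above every leucine library. Tek RNA had a log2 change of -0.13 ± 0.08 (edgeR adjusted p = 0.999). Tek footprints were 32.5, 28.8, 28.4, 26.02 and 28.2 CPM with vehicle and 23.4 at the lowest, 27.4 at the median and 32.4 at the highest with leucine. The highest libraries, vehicle A1 and leucine A1, were almost level. Between treatments the footprint log2 difference was -0.07 ± 0.09 (edgeR adjusted p = 0.790).

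Cdh5 encodes VE-cadherin, the adhesion protein of endothelial adherens junctions. Its RNA was 41.4, 29.6, 51.9, 39.9 and 22.8 CPM with vehicle, and 24.7 at the lowest, 32.98 at the median and 77.3 at the highest with leucine. Leucine A3 was again far above every other RNA library, and leucine A1 and A2 of the same set were near the lowest. Cdh5 RNA had a log2 change of 0.05 ± 0.30 (edgeR adjusted p = 0.999), and without leucine A3 the change was -0.26 (edgeR adjusted p = 0.798). It was -0.02 without vehicle A2 and -0.08 without vehicle B2, so its sign turned without any of these 3 libraries. Cdh5 footprints were 185, 192, 142, 181 and 211 CPM with vehicle and 139 at the lowest, 176 at the median and 204 at the highest with leucine. Vehicle A3 and leucine A3 were the lowest of their treatments, and the 2 ranges nearly coincided. The log2 change in footprints was -0.04 ± 0.11 (edgeR adjusted p = 0.925).

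Pecam1 encodes CD31, an adhesion molecule at the contacts between endothelial cells, also present on platelets and leukocytes. Its RNA was 53.1, 44.99, 53.6, 50.1 and 38.8 CPM with vehicle, and 35.8 at the lowest, 40.4 at the median and 50.1 at the highest with leucine. Leucine A1 and A2 lay under every vehicle library, and the other 4 leucine libraries lay inside the vehicle range. Pecam1 RNA had a log2 change of -0.19 ± 0.12 (edgeR adjusted p = 0.999). Pecam1 footprints were 70.3, 72.02, 59.9, 55.5 and 63.6 CPM with vehicle, and 48.6 at the lowest, 57.3 at the median and 68.5 at the highest with leucine. All 3 leucine libraries of set B were under every vehicle library, while leucine A1, A2 and A3 were among the vehicle values. Its footprint log2 change was -0.16 ± 0.10 (edgeR adjusted p = 0.576).

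Mmrn2 encodes multimerin-2, a glycoprotein of the endothelial extracellular matrix. Its RNA was 19.03, 18.6, 19.6, 18.96 and 14.2 CPM with vehicle and 13.4 at the lowest, 15.8 at the median and 16.5 at the highest with leucine. Of the vehicle libraries, 4 lay above all leucine libraries and B2 lay near the bottom of the leucine range. Mmrn2 RNA had a log2 change of -0.22 ± 0.09 (95% interval -0.42 to -0.01; unadjusted p = 0.0378, edgeR adjusted p = 0.999). The authors' deposited edgeR results give it an unadjusted p of 0.162 and a log2 change of -0.21. Mmrn2 footprints were 32.2, 29.1, 28.9, 25.5 and 27.7 CPM with vehicle and 22.3 at the lowest, 27.1 at the median and 32.5 at the highest with leucine, with leucine A1 highest and leucine B2 lowest of all 11. On the footprint side the log2 change was -0.07 ± 0.09 (edgeR adjusted p = 0.819).

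Ushbp1, named for a protein that binds harmonin, had the smallest unadjusted p of the 7 in RNA. Its RNA was 24.6, 17.8, 21.2, 19.4 and 16.5 CPM with vehicle and 13.1 at the lowest, 14.8 at the median and 17.1 at the highest with leucine. Vehicle A1, A2, A3 and B1 lay above all 6 leucine libraries, and vehicle B2 lay under leucine B2 only. The RNA mean was 19.9 ± 3.18 CPM (SD, n = 5) with vehicle and 15.2 ± 1.43 CPM (SD, n = 6) with leucine, a log2 change of -0.39 ± 0.11 (95% interval -0.63 to -0.15; unadjusted p = 0.00440). That p ranked 5 of 6054 genes, and the edgeR adjusted p was 0.999. The gene was chosen with earlier results of these data known, so the rank is a description only. The authors' deposited edgeR results give Ushbp1 RNA an unadjusted p of 0.0167. Ushbp1 footprints were the lowest of the 7, at 9.15, 9.64, 6.26, 6.93 and 9.73 CPM with vehicle and 6.28 at the lowest, 7.99 at the median and 11.2 at the highest with leucine. Leucine A1 was the highest of all 11 footprint libraries, and the other leucine libraries lay inside the vehicle range. Leucine minus vehicle in footprints was, on the log2 scale, -0.00184 ± 0.16 (95% interval -0.35 to 0.35; edgeR adjusted p = 0.998).

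Eng, the co-receptor endoglin, is known here through the authors' deposited table only, with no values per library. In the authors' deposited table for RNA it had a mean level of 6.86 CPM and a log2 change of 0.21 after leucine (FDR = 1). In the authors' deposited table for footprints it had 45.9 CPM and a log2 change of 0.04 (FDR = 1).

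**Figure D2:**
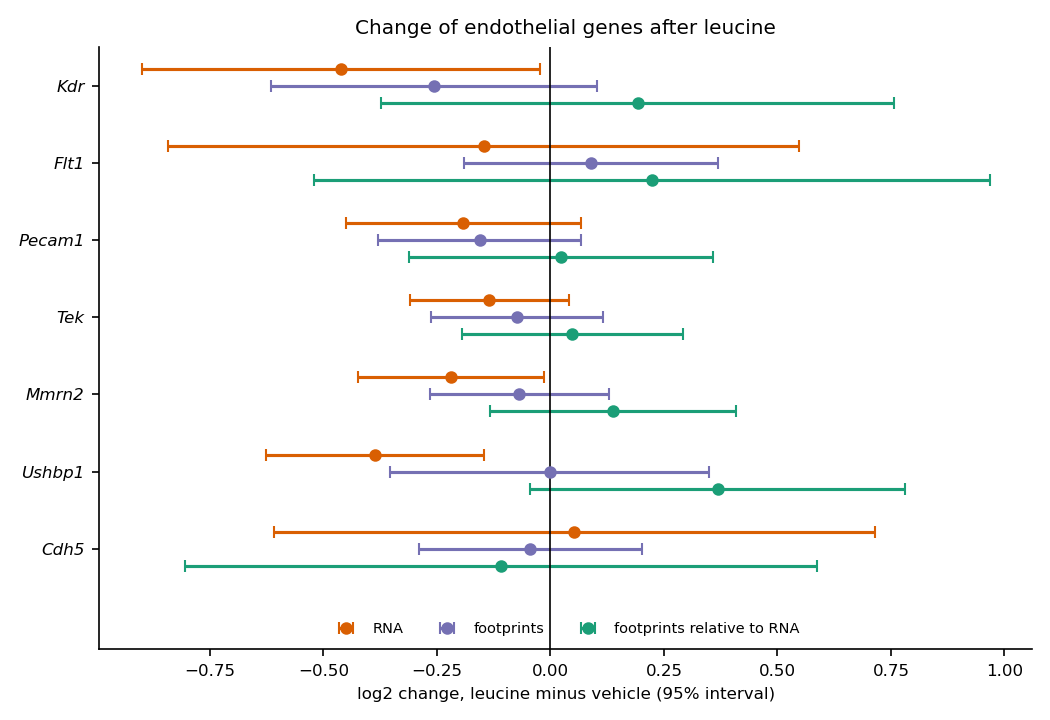
Log2 change from vehicle to leucine for each endothelial gene, as points with 95% intervals from edgeR, in RNA, in footprints and in footprints relative to RNA. The RNA intervals of Kdr, Mmrn2 and Ushbp1 lie below 0 before adjustment, and every other interval crosses 0.

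Footprints relative to RNA, often called translational efficiency, were compared between treatments in a single model of all 22 libraries. The 7 log2 differences ran from -0.11 for Cdh5 to 0.37 ± 0.20 for Ushbp1 (95% interval -0.04 to 0.78; edgeR adjusted p = 0.766), with a median of 0.14 against -0.02 over all genes. None of the 7 had an unadjusted edgeR p under 0.05, against 7.09% of all genes. The median was 0.26 within set A and -0.10 within set B. For Ushbp1 those values were 0.76 and -0.10.

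The RNA change was also taken within each set, where the median of the 7 was -0.31 in set A and -0.08 in set B. For Ushbp1 RNA the log2 change was -0.57 in set A and -0.16 in set B, and for Kdr RNA -0.59 and -0.26. The test of the difference between sets did not pass for either gene (edgeR adjusted p = 0.999 for both), nor for any of the other 5 in either assay. Over all genes 0 of 6054 passed that test in each assay, with 110 at an unadjusted p under 0.05 in RNA and 176 in footprints. Each within-set change rests on 2 or 3 libraries a treatment.

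Marker lists of other cell types also varied between libraries. Fibroblast markers, 14 of 14 with a row, summed to 3731 to 6421 CPM in vehicle RNA and 3521 to 8443 CPM in leucine RNA. Macrophage and leukocyte markers, 4 of 14 with a row, summed to 86.5 to 238 CPM and 89.3 to 255 CPM. Smooth muscle and pericyte markers, 11 of 15 with a row, summed to 1629 to 2161 CPM and 1653 to 2112 CPM. The ranges of vehicle and leucine overlapped for these lists in RNA. In footprints, fibroblast markers summed to 13383 to 23034 CPM with vehicle and 13429 to 18032 CPM with leucine, with 0 of 14 called and a median log2 change of -0.25. The 4 fibroblast markers at an unadjusted edgeR p under 0.05 were all lower with leucine, at -0.31 for Dcn, -0.45 for Col1a2, -0.25 for Mfap5 and -0.21 for Mmp2. Macrophage and leukocyte markers summed to 364 to 654 CPM in vehicle footprints and 397 to 558 CPM in leucine footprints, with a median log2 change of -0.27 and 0 of 4 called (edgeR; 0 at an unadjusted p under 0.05). The smooth muscle and pericyte list summed in footprints to 2090 to 2644 CPM with vehicle and 2608 to 3483 CPM with leucine, with an overlap of a single library of each treatment, and 0 of 11 of its genes were called (edgeR; 2 at an unadjusted p under 0.05). That list holds Des, which muscle fibres also express, at a mean of 1060 CPM in RNA and 1429 CPM in footprints. The summed level of the list therefore rests largely on Des in both assays. Abcc9 followed, at 424 and 477 CPM. Muscle fibre markers summed to 361291 to 519102 CPM in vehicle RNA and 339283 to 502338 CPM in leucine RNA. In footprints they summed to 298058 to 363129 CPM with vehicle and 325943 to 460283 CPM with leucine, with 0 of 15 called (edgeR; 8 at an unadjusted p under 0.05) and a median log2 change of 0.28. Of the remaining lists, 3 of 8 adipocyte, 2 of 8 satellite cell, 1 of 7 Schwann cell and 0 of 13 erythroid and platelet markers had a row. None of these was called (edgeR; 1 satellite cell marker in RNA at an unadjusted p under 0.05). Adipocyte markers summed to 174 to 685 CPM in vehicle RNA, with a median of 179 and the maximum in library B2. In leucine RNA they summed to 140 to 361 CPM. The part of these cell types in the endothelial values was not tested.

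Between assays the 7 genes differed widely. In vehicle muscle all 7 differed between footprints and RNA, 5 higher and 2 lower in footprints, where 75.2% of all genes were called, 38.2% higher and 37% lower. Cdh5 had footprints 5.66-fold over RNA, relative to the other genes, a log2 difference of 2.50 ± 0.26 (edgeR adjusted p = 1.61e-08), higher than 99.03% of genes. Flt1 followed at 1.19 ± 0.27, then Kdr at 0.95 ± 0.20, Mmrn2 at 0.88 ± 0.10 and Pecam1 at 0.63 ± 0.12 (edgeR adjusted p from 3.52e-08 to 0.000397). Ushbp1 lay at the other end, with footprints 0.485 times its RNA on the same scale, a log2 difference of -1.05 ± 0.15 (edgeR adjusted p = 1.29e-06), at the 14.04 percentile of all genes. Tek was slightly lower in footprints, at -0.22 ± 0.09 (edgeR adjusted p = 0.0260).

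The order over the 7 genes was the same with leucine. Cdh5 had a log2 footprint-to-RNA difference of 2.39 there and Ushbp1 of -0.68, and all but Tek passed the test, where 78.6% of all genes were called. For Tek the value with leucine was -0.17 (edgeR adjusted p = 0.0513). The call for Tek in vehicle muscle was also lost within set A, at -0.14 (edgeR adjusted p = 0.326), and without vehicle footprint library B1, at -0.19 (edgeR adjusted p = 0.0706).

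**Figure D3:**
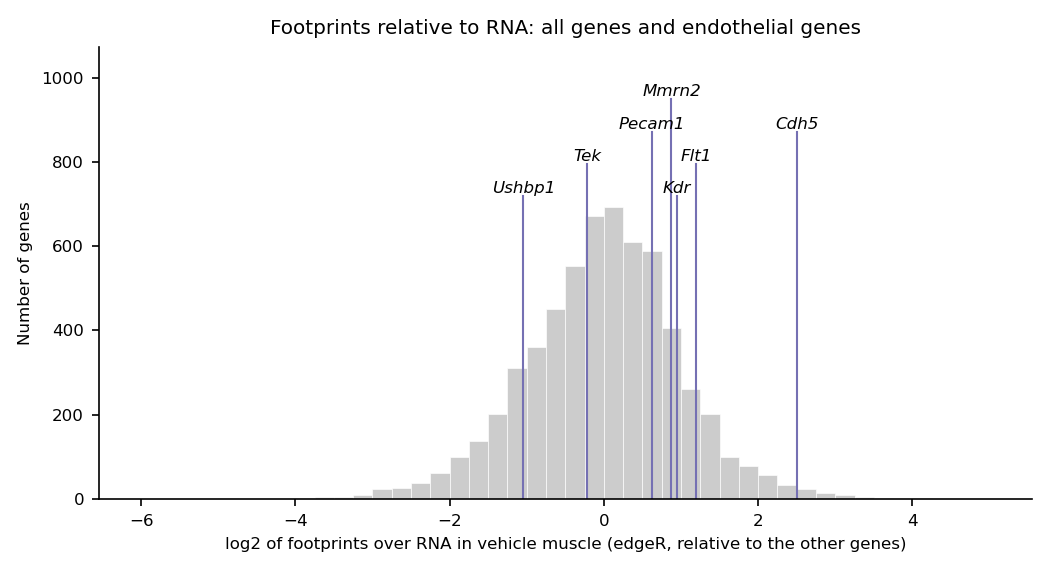
Number of genes, in grey, by the log2 of footprints over RNA in vehicle muscle for all 6054 genes, with a line for each endothelial gene. Cdh5 at 2.50 stands in the right tail and Ushbp1 at -1.05 on the left side, so the 7 genes span most of the distribution.

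Ribosomes cover mainly coding sequence, while RNA reads cover the whole transcript, so both levels were also put on a length scale for 5941 of the 6054 genes. Footprint CPM per kilobase of coding sequence over RNA CPM per kilobase of transcript was 8.31 for Cdh5, at the 97.6 percentile, against a median of 1.72 over all genes. On this scale Flt1 was at 3.10, Kdr at 2.25, Mmrn2 at 2.20 and Pecam1 at 2.05. Tek was at 1.03 and Ushbp1 at 0.729, the 21.7 and 10.1 percentiles. Coding sequence makes up 58.9% of the Cdh5 transcript and 83.8% of that of Ushbp1 in the GENCODE annotation. The authors' file gives Ushbp1 a transcript of 3549 bases and GENCODE one of 2438 bases, so its RNA level per kilobase depends on the transcript used.

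By RNA level per kilobase of transcript in vehicle muscle, Pecam1 was first at 14.6 ± 1.89 CPM per kilobase (SD, n = 5). Its range overlapped those of Cdh5, Kdr and Flt1. Cdh5 at 9.31 ± 2.82, Kdr at 9.08 ± 2.74, Flt1 at 8.91 ± 3.41 and Tek at 8.31 ± 0.711 followed, and these 4 did not differ beyond their spread. Ushbp1 at 5.603 ± 0.896 and Mmrn2 at 4.60 ± 0.556 were lowest, with ranges that overlapped each other and not that of Tek. The range of Ushbp1 also overlapped those of Flt1, Cdh5 and Kdr, and the range of Mmrn2 overlapped that of Flt1. The place of Ushbp1 rests on the transcript of 3549 bases, and its level would be higher with the one of 2438 bases. By footprints per kilobase of coding sequence the order was Cdh5 at 77.4 ± 10.7 CPM per kilobase, Pecam1 at 29.9 ± 3.23, Flt1 at 27.6 ± 3.996, Kdr at 20.5 ± 3.61, Mmrn2 at 10.1 ± 0.848, Tek at 8.53 ± 0.695 and Ushbp1 at 4.08 ± 0.797. Cdh5 stood clear of Pecam1, Kdr of Mmrn2, and Tek of Ushbp1, with no overlap between libraries. Pecam1 and Flt1, Flt1 and Kdr, and Mmrn2 and Tek overlapped.

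Between the column-name sets, with treatment in the model, 0 of the 7 genes were called in RNA, where 18.8% of all genes were (9.02% higher and 9.8% lower in set B), and 1 of the 7 in RNA had an unadjusted edgeR p under 0.05, against 37.2% of all genes. In footprints 1 of 7 was called, where 23.8% of all genes were (11.7% higher and 12.2% lower), and 2 of 7 had an unadjusted edgeR p under 0.05, against 38.1% of all genes. Pecam1 footprints were lower in set B, by a log2 difference of -0.26 ± 0.07 (edgeR adjusted p = 0.0191). That call was lost without vehicle footprint library B1 (edgeR adjusted p = 0.05002) and without leucine footprint library B2 (edgeR adjusted p = 0.0503). Without vehicle footprint library A3, Flt1 footprints were called as well, at -0.30 (edgeR adjusted p = 0.0443).

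Deviations of the 7 genes from library to library were correlated, strongly for some pairs and hardly for others. Each gene's log2 CPM was taken as a deviation from the mean of its treatment and set, which leaves 11 values an assay tied by 4 subtracted means. All 21 pairs had a positive Pearson correlation in RNA, with a median of 0.64, and all 21 in footprints, with a median of 0.70. The lowest was 0.08 in RNA, for Tek and Cdh5, and 0.16 in footprints, for Pecam1 and Tek. Over every pair of the 6054 genes, 49.9% were positive in RNA and 49.97% were in footprints, with medians of -0.0020 and -0.00030. In RNA the closest pair was Kdr and Ushbp1, with r = 0.97 and Spearman's rho = 0.96, followed by Flt1 and Pecam1 with r = 0.96 and rho = 0.86, and Flt1 and Cdh5 with r = 0.96 and rho = 0.96. In footprints the closest pair was Tek and Mmrn2, with r = 0.94 and rho = 0.92. Without leucine RNA library A3 all 21 RNA pairs were still positive, with a median of 0.67 and a lowest of 0.23. These correlations are descriptions of the same 11 libraries, and no p is given for them.

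The size of the movement differed among the genes. The SD of the RNA deviations was 0.59 on the log2 scale for Cdh5, 0.53 for Flt1 and 0.41 for Kdr, at the 97.4, 96.3 and 92.3 percentiles of all genes, whose median was 0.16. Tek at 0.13, Mmrn2 at 0.14 and Ushbp1 at 0.16 were at the 35.7, 41.0 and 52.2 percentiles. In footprints Kdr at 0.35 and Ushbp1 at 0.27 moved most, at the 96.3 and 91.9 percentiles, against a median of 0.13. The mean deviation of the 7 was highest in leucine A3 among RNA libraries, at 0.38, and lowest in vehicle A2, at -0.30. In footprints the means ran from -0.21 in vehicle A3 to 0.19 in leucine B1.

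**Figure D4:**
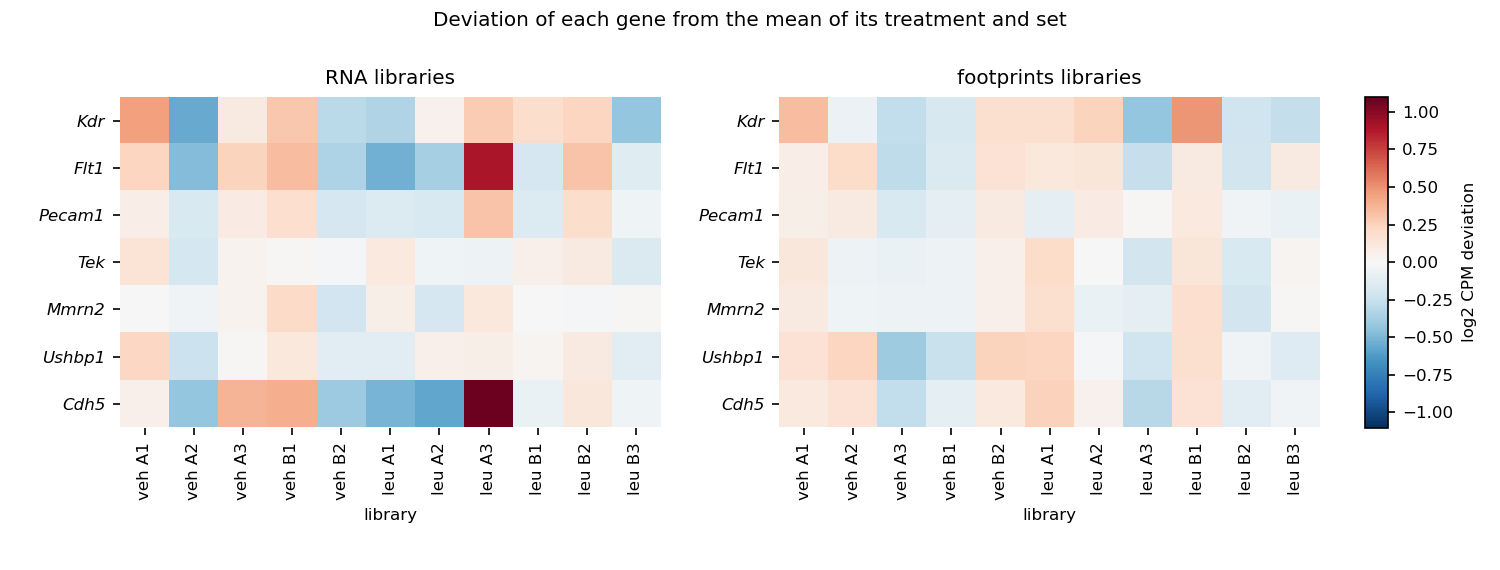
Deviation of each endothelial gene's log2 CPM from the mean of its treatment and set, by library, in red above and blue below that mean, on one colour scale for both assays. Whole columns tend to share a colour, as in vehicle A3 of footprints, where the mean over the 7 genes is -0.21. In leucine A3 of RNA most genes lie above their mean, with Cdh5 at 1.08 and Flt1 at 0.89, while Tek is at -0.06.

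Tissue-wide differences between libraries moved with the endothelial mean. It followed the first principal component of all genes after the same subtraction, with r = 0.92 in RNA, where that component held 52.9% of the variance, and r = 0.92 in footprints, where it held 28.9%. Correlations over 0.5 with the endothelial mean were found for 29.3% of all genes in RNA and 17.5% in footprints. Those below -0.5 were found for 30.9% and 16.3%. The mean of the 15 muscle fibre markers with a row had r = 0.92 in RNA and 0.70 in footprints, and smooth muscle and pericyte markers 0.85 and 0.75. Fibroblast markers went the other way, with r = -0.90 and -0.51, as did macrophage and leukocyte markers, with -0.96 and -0.77. Of the vessel gene lists described further on, angiopoietin-Tie genes had -0.51 and -0.10, and endoglin and BMP-TGF-beta genes 0.52 and -0.40. The other vessel lists were positive in both assays. For log2 total counts r was -0.08 and -0.14. The part of these other cell types in the shared pattern was not tested.

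Outside the 7, the 10 genes most like the endothelial mean in both assays were Itga1, Pfkfb1, Wipi1, Rgs5, Gys1, Myot, Adck3, Podxl, Tjp1 and Arfgef2, taken by the lower of the RNA and footprint correlations, over 11 libraries each. Itga1, an integrin subunit that binds collagen, led with r = 0.99 in RNA and 0.96 in footprints. Pfkfb1, a regulator of glycolysis, and Gys1, the muscle glycogen synthase, had lower values of 0.96 and 0.93. Myot, the Z-disc protein myotilin, had 0.92. Rgs5, a pericyte marker, had 0.94, and Podxl, a sialomucin of the endothelial surface, 0.92. With leucine RNA library A3 left out, 6 of these 10 stayed among the first 10.

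Other endothelial identity genes were spread widely over the same measure. Of 49 listed, 25 had a row, and their mean had r = 0.77 in RNA and 0.78 in footprints with the mean of the 7. Of these 25 genes, 16 had a positive correlation in both assays, 6 a negative one in both, and 3 differed in sign between assays. Podxl ranked 8 of 6054 and Tie1, a receptor kinase related to Tek, ranked 12, followed by Gpr116 at 22 and Eltd1 at 56. Ptprb, the vascular phosphatase that acts on TIE2, had r = 0.93 in RNA and 0.77 in footprints. Cd34, a sialomucin shared with fibroblast progenitors, was opposite, with r = -0.91 in RNA and -0.41 in footprints. Ly6a, with -0.95 and -0.43, and Stab1, a scavenger receptor of sinusoidal endothelium and macrophages, with -0.87 and -0.44, were opposite as well. The other 3 negative in both assays were Thbd, the thrombin receptor thrombomodulin, with -0.53 and -0.47, Rgcc with -0.47 and -0.53, and Mcam, an adhesion molecule also on the smooth muscle and pericyte list, with -0.51 and -0.31. Without leucine RNA library A3 the RNA value was -0.36 for Thbd, -0.04 for Rgcc and -0.71 for Mcam. Among the 7 genes, each set against the mean of the other 6, the RNA correlation ran from 0.32 for Tek to 0.94 for Flt1. Without leucine RNA library A3 it ran from 0.48 for Mmrn2 to 0.95 for Flt1, with Tek at 0.66.

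**Figure D5:**
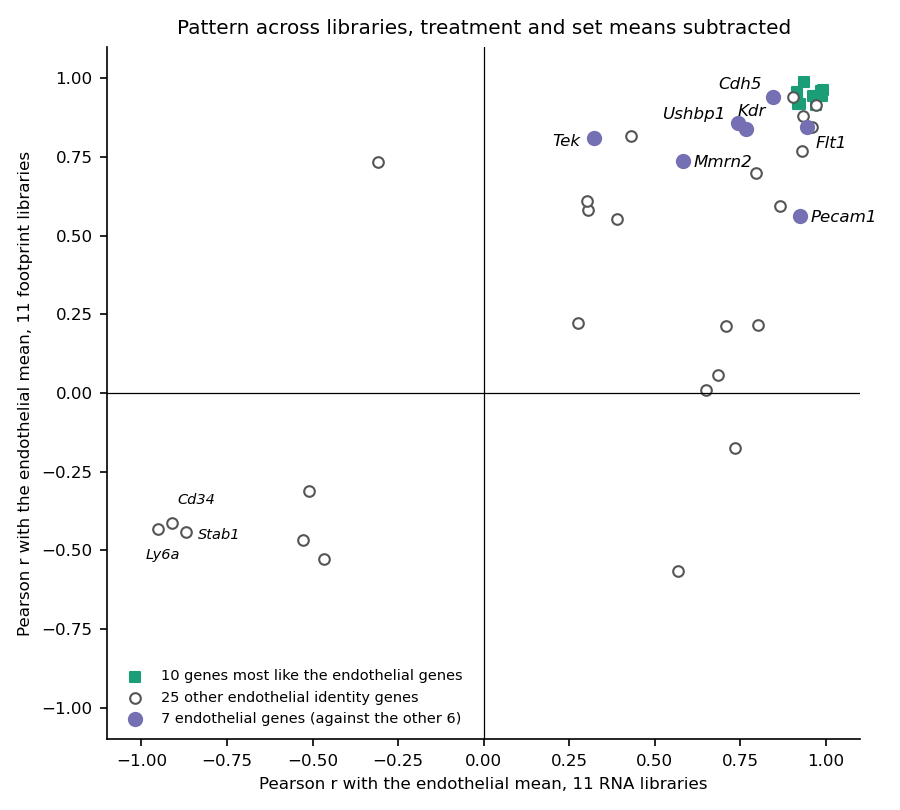
Pearson correlation with the endothelial mean over 11 RNA libraries (horizontal) and 11 footprint libraries (vertical) for the 7 endothelial genes against the other 6, the 10 genes most like them and 25 other endothelial identity genes. The 7 genes lie in the upper right, with Tek at 0.32 in RNA (0.66 without leucine RNA library A3), and 6 of the 25 identity genes, Cd34, Ly6a, Stab1, Thbd, Rgcc and Mcam, lie below 0 on both axes.

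The pathways around these genes were read from lists in the same fits. No gene of the 7 lists was called after leucine in RNA or in footprints relative to RNA, where 0% of all genes were called, and 1 gene, Mib1, was called in footprints. Of the other endothelial identity genes 0 of 25 passed in each assay, with a median log2 change of -0.11 in RNA and -0.07 in footprints, and an unadjusted edgeR p under 0.05 for 1 and 0 of them. Cd93, a receptor of Mmrn2, had RNA of 59.3 ± 8.96 CPM (SD, n = 5) with vehicle and 45.7 ± 7.45 CPM (n = 6) with leucine, a log2 change of -0.37 (edgeR adjusted p = 0.999). Its footprint change was -0.19, and Ehd4, a membrane trafficking protein, had -0.22 in RNA and -0.13 in footprints, none of which passed.

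Of 12 VEGF ligands and co-receptors 6 had a row and 0 were called, with a median of -0.25 in RNA and -0.14 in footprints, and 2 and 1 at an unadjusted edgeR p under 0.05. Nrp2, a VEGF co-receptor, had a log2 change of -0.28 in RNA and -0.23 in footprints (edgeR adjusted p = 0.999 and 0.297). Pdgfb, the growth factor by which endothelium recruits pericytes, had -0.26 in RNA, and Pdgfra, a receptor of fibroblasts, -0.17 in footprints. Of 11 angiopoietin-Tie genes 7 had a row and 0 were called, with medians of -0.13 and -0.04, and 0 and 1 at that level. Angptl1 had 0.32 in RNA and -0.29 in footprints, and Angptl2 -0.13 and -0.35, neither past the threshold. With leucine footprint library A3 left out, Angptl1 footprints were called, at -0.43 (edgeR adjusted p = 0.0366).

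Of 27 endothelial transcription factors 11 had a row and 0 were called, with medians of -0.10 in RNA and -0.13 in footprints, and 0 and 2 at an unadjusted edgeR p under 0.05. Hif1a, the oxygen-regulated factor upstream of VEGF-A, had footprints of 54.6 ± 2.34 CPM (n = 5) with vehicle and 45.7 ± 2.11 CPM (n = 6) with leucine. The groups did not overlap, and leucine lay wholly below vehicle in footprints for 0.743% of all genes. Its log2 change was -0.26 ± 0.06, with an edgeR adjusted p of 0.0571, and 0.0434 with the set in the model. Ets2 had -0.22 in footprints (edgeR adjusted p = 0.211), Ets1 -0.20 in RNA and Mef2c, which muscle fibres also express, -0.16 in RNA.

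Of 16 Notch genes of vessels 9 had a row, and 1 was called, lower in footprints, where 0.0661% of all genes were called lower. The unadjusted edgeR p was under 0.05 for 0 of the 9 in RNA and 3 in footprints. Mib1, the ubiquitin ligase that activates Notch ligands, had footprints of 39.5 ± 1.56 CPM (n = 5) with vehicle and 31.4 ± 1.83 CPM (n = 6) with leucine. Leucine lay wholly below vehicle, as for 0.743% of all genes in footprints. The log2 change was -0.33 ± 0.06 (edgeR adjusted p = 0.0479), and leaving out 1 library gave -0.36 to -0.32 with the call lost for 9 of the 11 libraries (edgeR adjusted p = 0.0186 to 0.152). Adam10, a protease that cleaves Notch receptors, had -0.23 in footprints, also with no overlap between groups (edgeR adjusted p = 0.0699). Hes1, a Notch target, had -0.41 ± 0.37 in RNA.

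Of 22 endoglin and BMP-TGF-beta genes 14 had a row and 0 were called, with medians of 0.04 in RNA and -0.12 in footprints, and 0 and 2 at an unadjusted edgeR p under 0.05. Tgfb2, a ligand, had -0.35 in footprints (edgeR adjusted p = 0.0837), the receptor Bmpr1a -0.22, and Id1, a target of BMP signalling, 0.38 in RNA. The receptor Tgfbr1 had -0.10 in RNA. Of 27 vascular junction genes 17 had a row and 0 were called, with medians of 0.0019 and -0.05, and 1 and 3 at that level. Heg1, which partners Krit1 at endothelial junctions, had -0.22 in footprints (edgeR adjusted p = 0.125). Its leucine group lay wholly below vehicle, as for 0.743% of all genes in footprints. Krit1 had 0.16 in RNA. Mllt4, the junction protein afadin, had -0.31 in RNA, and Rap1b, a small GTPase of junctions, -0.20 in footprints.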

How the data were processed

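Quadriceps RNA and ribosome footprints were measured in 22 libraries. RNA libraries came from rRNA-depleted, fragmented QIAzol extracts and footprints from RNase-digested polysomes, per the labels' protocols. Bowtie, edgeR and build mm9 are named by the submitters' processing notes, with versions, strand setting and handling of multiply mapping reads not given in the sources used here. The authors deposited whole-number counts per gene, and all library columns were used. No value lies below 129 counts, so the table holds genes of at least that count in each library. The authors' deposited tables of edgeR results give log2 fold changes, log2 CPM, p-values and FDR per the file headers; CPM from them were taken as powers of 2. They served for Eng, which has no row in the count table as used here.

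All models were run in edgeR 4.0.16 under R 4.3.3 (TMM, filterByExpr, robust quasi-likelihood, Benjamini-Hochberg adjustment over 6054 genes, threshold 0.05). The filter removed 0 genes. Models were leucine against vehicle in each assay, the treatment by assay interaction over all 22 libraries, footprints against RNA, and column-name set with treatment. The columns carry no replicate number, so libraries were not paired across assays, although RNA and footprints may share animals. Samples were grouped by treatment and assay in their labels. DESeq2 1.42.0, RLE and upper-quartile factors, no filter, the set as covariate, each set alone and each library left out were the alternatives. Pattern correlations used log2 CPM with a prior count of 1. Replicate libraries differed from each other by more than counting noise (lowest chi-square per degree of freedom 20.6). Lengths came from the authors' table and GENCODE M21, and promoters from RefSeq on GRCm38.p6. No exon of another gene overlapped those of the 7 genes in GENCODE. The fits were tested on simulated counts. The genes of the endothelial group and the lists were chosen with earlier results of these data known. Named list genes are any called gene and the 2 with the smallest p in each assay.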

Additional observations from a re-analysis of the deposited data

Results flagged for a closer look

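A gap test for a single distant library was run on each of the 7 genes in each of the 4 groups, and 4 of the 28 groups held such a library. The nominal rate of the test is about 1 in 20. It cannot serve as a background here, because the 28 groups reuse the same libraries and the share over all genes was not computed. For Flt1, leucine RNA library A3 had 99.2 CPM and the nearest other library 51.4 CPM, a gap of 0.761 of the group's range. Cdh5 had 77.3 CPM in the same library against 37.6 CPM in the nearest, a gap of 0.754 of the range. That library is also the one farthest out on the first component of all genes in RNA. For Mmrn2, vehicle RNA library B2 had 14.2 CPM and the nearest other library 18.6 CPM, a gap of 0.819. In the leucine RNA group, Mmrn2 had 13.4 CPM in library A2 against 15.6 CPM in the nearest, a gap of 0.7.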

How the results depend on the processing

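Over 83 results, 1606 values were computed under alternatives: 1523 kept direction and side of the threshold, 52 changed sign, 20 lost and 10 gained a call or count, and 1 moved. No member was called for leucine in RNA, footprints or efficiency under any of them. Over all genes in footprints, edgeR called 46 genes and DESeq2 253, and with upper-quartile factors 0. In efficiency DESeq2 called 57 genes against 0, and between sets in RNA 1978 against 1139. DESeq2 called Hif1a, Ets2, Adam10, Tgfb2, Bmpr1a and Heg1 in footprints. Within set B the change turned for Flt1 RNA (0.13), Hes1 RNA (0.37) and Flt1 footprints (-0.035), and in efficiency for Flt1 (-0.17), Pecam1 (-0.19) and Ushbp1 (-0.10), moving the median to -0.10. Within set A it turned for Ushbp1 (0.20) and Cdh5 (0.0017) footprints. Ushbp1 footprints also turned with RLE factors (0.0029) and the set as covariate (0.012). With upper-quartile factors the set difference in RNA turned for Pecam1 (0.021) and Ushbp1 (0.036). The cause was not tested.

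Leaving out 1 library, RNA changes ran from -0.45 to 0.0099 for Flt1 and -0.26 to 0.21 for Cdh5. Footprint changes ran from -0.10 to 0.065 for Ushbp1 and -0.11 to 0.023 for Cdh5. Efficiency ran from -0.026 to 0.091 for Pecam1, -0.0037 to 0.10 for Tek and -0.26 to 0.21 for Cdh5. The set difference in RNA ran from -0.18 to 0.025 for Kdr, -0.099 to 0.057 for Pecam1, -0.11 to 0.025 for Mmrn2, -0.059 to 0.072 for Ushbp1 and -0.47 to 0.039 for Cdh5, and in footprints from -0.13 to 0.088 for Kdr, with 0 to 2 of the 7 called. Without leucine RNA A3, 6 of the 10 most similar genes were shared. No paired analysis was possible because the columns of the count table carry no replicate numbers. Each of the 7 genes had 150 or more counts in every library. The part of counting noise in the spread of each gene was not tested.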
